A study of Homo sapiens with 6 samples.

Results

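The genes described here are 10 genes that coat lipid droplets or build and break down the triglyceride inside them. They are the perilipins PLIN1, PLIN2, PLIN3, PLIN4 and PLIN5, the fat storage-inducing transmembrane proteins FITM1 and FITM2, the lipase PNPLA2 and the acyltransferases DGAT1 and DGAT2. They were chosen by name, and every probe set that the annotation of the array assigns to one of them alone was taken, which gave 20 probe sets of 54613 on the array and 10 genes of 19775 with a probe set of their own. PLIN1, PLIN3, PLIN4, FITM1 and DGAT1 had 1 probe set each, and the 5 others had several.

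RNA came from H295R/TR SF-1 cells. They derive from H295R, a human adrenocortical carcinoma line, as a single subclone in which doxycycline (Dox) switches on the nuclear receptor SF-1, encoded by NR5A1. All 6 arrays are of this subclone, so cells of both groups carry the inducible SF-1 and differ by label only in the drug. The basal group (3 arrays) was kept for 72 h without Dox, and the Dox group (3 arrays) received Dox at 1 µg/mL for 72 h. Cells given Dox without the inducible SF-1 were not analysed here, so the drug and SF-1 cannot be told apart. The study calls the arrays of a group biological replicates. The permutation p-values compare these arrays alone, and those of limma also use a variance fitted over all probe sets. Every SE of a difference given below is limma's and uses that variance too, also where a permutation p-value stands beside it. Such an SE is therefore not the one that the SDs of the arrays alone would give.

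A lipid droplet is a core of triglyceride and cholesteryl ester under a single layer of phospholipid, and it buds from the endoplasmic reticulum. DGAT1 and DGAT2, which are not related in sequence, each add the last fatty acid to make triglyceride, FIT proteins help the droplet leave the membrane, perilipins cover its surface and limit access of lipases, and PNPLA2 (adipose triglyceride lipase) starts hydrolysis. In the adrenal cortex, droplets mainly hold cholesteryl ester, a source of cholesterol for steroid hormones.

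SF-1 binds DNA as a single molecule at sites with the core AAGGTCA or AAGGCCA, so the bases just upstream are printed for PLIN1 and FITM1, whose values ranged most widely over the arrays, and for FITM2, the close relative of FITM1, to show whether such letters occur there. The sequences are the 250 bases before the annotated start in RefSeq on GRCh38.p14, 5′ to 3′ on the strand of the gene, with matches to AAGGNCA on either strand in capitals. PLIN1 lies at chr15:89679368-89679617 (minus strand), FITM1 at chr14:24130409-24130658 (plus strand) and FITM2 at chr20:44311203-44311452 (minus strand).
PLIN1: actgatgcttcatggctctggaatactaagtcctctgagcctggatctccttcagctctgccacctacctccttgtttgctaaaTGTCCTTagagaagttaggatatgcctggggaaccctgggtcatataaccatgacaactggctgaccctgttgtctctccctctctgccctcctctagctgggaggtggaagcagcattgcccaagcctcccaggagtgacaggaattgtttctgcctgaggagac
FITM1: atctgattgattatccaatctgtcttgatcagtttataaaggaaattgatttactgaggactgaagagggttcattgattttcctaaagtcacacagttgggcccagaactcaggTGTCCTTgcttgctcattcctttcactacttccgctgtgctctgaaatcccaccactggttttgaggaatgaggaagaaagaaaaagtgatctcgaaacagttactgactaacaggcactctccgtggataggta
FITM2: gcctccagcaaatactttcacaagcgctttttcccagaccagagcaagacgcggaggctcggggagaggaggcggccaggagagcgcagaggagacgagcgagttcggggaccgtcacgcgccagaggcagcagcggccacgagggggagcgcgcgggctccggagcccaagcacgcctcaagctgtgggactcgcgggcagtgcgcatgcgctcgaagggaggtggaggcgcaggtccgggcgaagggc
The letters AAGGTCA occurred in 0 of the 8 genes with an entry, against 3.44% of 35116 promoter windows of the same length. AAGGCCA occurred in 1 of the 8, in PLIN4 at position -26 from the start, against 4.35% of windows. The looser AAGGNCA, which includes both, occurred in PLIN1 at -166, in FITM1 at -135 and in PLIN4 at -26, that is in 3 of 8, against 14.8% of windows. The matches in PLIN1 and FITM1 are the reverse complement, TGTCCTT, and so have A at the free letter. FITM2 had no match in its window. A match is a description of letters and not a binding site. DGAT1 and DGAT2 had no entry.

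The arrays did not separate by label, which touches every result that follows. Basal 1 and Dox 1 were nearly identical (SD of their difference 0.134 over all probe sets, with 0 probe sets over 2-fold apart), and so were basal 3 and Dox 2 (SD 0.149, again 0 probe sets). Over the 20 probe sets of these genes, the largest difference was 0.299 in the first pair and 0.253 in the second. The SD of all values in an array was smaller in basal 2 (2.36) and Dox 3 (2.37) than in the 4 others (2.43 to 2.44). NR5A1 itself measured 5.84, 5.92 and 6.30 in basal 1 to 3 and 5.55, 6.21 and 6.41 in Dox 1 to 3, a difference of 0.03 ± 0.24 (SE, exact permutation test, p = 1). The probe set read here was below the array median in 1 array, Dox 1. Whether it detects RNA of the inducible SF-1 was not tested, so these values alone cannot tell whether SF-1 was induced. The paper reports SF-1 overexpression with Dox from an immunoblot of the protein. Without basal 3 and Dox 1 the NR5A1 difference was 0.43 ± 0.14 (1.34-fold, limma, adjusted p = 0.132), at 0.37 for Dox 2 against basal 1 and 0.49 for Dox 3 against basal 2. Results are therefore given for the labelled groups and also without basal 3 and Dox 1, comparing Dox 2 with basal 1 and Dox 3 with basal 2 as array sets. These 2 arrays and the array sets were picked from the same data, basal 3 has the highest NR5A1 of the basal arrays and Dox 1 the lowest of the Dox arrays, and the comparison has 1 residual degree of freedom, so its p-values are not independent evidence. With 1 degree of freedom, limma takes much of each error from all probe sets and not from the spread of a gene's own arrays. Each pair has a second array, basal 1 or Dox 2, and leaving those out instead gave 0 calls (518 probe sets of the whole array at an unadjusted p under 0.05, limma). The calls without basal 3 and Dox 1 also needed the array sets in the model, with 0 calls when they were dropped (1580 probe sets at an unadjusted p under 0.05, limma). Dropping them left the size of each difference as it was (PLIN1 1.50, FITM1 1.40) and changed the error alone.

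By label, 0 of the 20 probe sets passed an adjusted p of 0.05 in limma, as did 0% of all 54613 probe sets, and the lowest adjusted p of any was 1. At an unadjusted p under 0.05 there were 373 probe sets on the whole array and 0 of these 20. The 3 basal and the 3 Dox arrays did not separate completely at any of the 20, against 3.81% of all probe sets. The 20 differences ran from -0.27 to 0.43 with a median of -0.014 (all probe sets, -0.0015). Without basal 3 and Dox 1, 4 of the 20 were higher with Dox (2.07% of all probe sets were) and 0 were lower (2.09%). The 4 were the only probe set of PLIN1, FITM1 and DGAT1 and the brightest of FITM2. The median difference of the 20 was 0.051, beside -0.0033 for all probe sets. The study, working from the same arrays, already lists PLIN1 and FITM1 among its changed genes, and their direction is therefore no independent evidence.

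**Figure D1:**
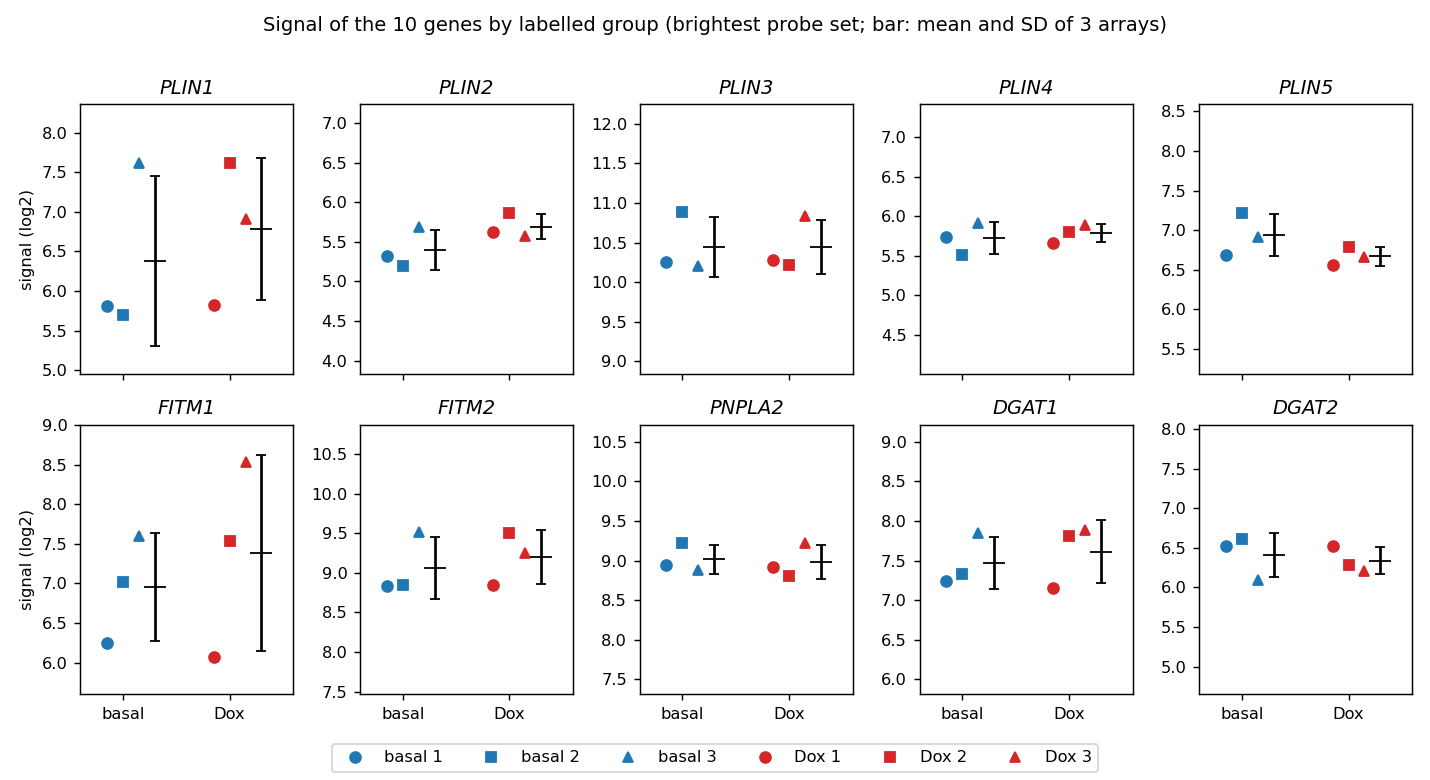
Signal (log2) of each of the 10 genes in the 6 arrays, at the brightest probe set, with basal arrays left and Dox arrays right in each panel and the mean and SD of 3 arrays beside them. For PLIN1, basal 3 sits with Dox 2 at 7.62 and 7.61 while Dox 1 sits with basal 1 at 5.82, so the groups overlap.

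Among the perilipins, a call was made for PLIN1 alone, and only without basal 3 and Dox 1. PLIN1, the main droplet protein of fat cells, measured 5.82, 5.70 and 7.62 in basal 1 to 3 and 5.82, 7.61 and 6.91 in Dox 1 to 3. Basal 1, basal 2 and Dox 1 were the low arrays and basal 3, Dox 2 and Dox 3 the high ones, across labels. The means were 6.38 ± 1.08 (basal) and 6.78 ± 0.90 (Dox, SD, n = 3 each), and the labelled difference of 0.40 ± 0.62 (SE) was smaller than either spread (exact permutation test, p = 0.6, where 0.1 is the smallest possible). It was -0.01 without Dox 2. Without basal 3 and Dox 1 the difference was 1.50 ± 0.16, a 2.84-fold higher signal (limma, adjusted p = 3.8e-05), at 1.79 in one array set and 1.21 in the other. With basal 1 and Dox 2 left out instead it was -0.29. In RNA of whole cultures, more cells of a kind and more RNA per cell cannot be told apart. Markers of fat cells were measured beside it. ADIPOQ, LEP and FABP4 were below the array median in all 6 arrays, CIDEA in 5, RETN in 3 and CFD in 1. The summed signal of the 6 markers was 211 to 214 in basal and 182 to 230 in Dox arrays. CFD was the 1 of the 6 that passed the test without basal 3 and Dox 1, and it was lower (fell by 0.65 on the log2 scale), as were 3.27% of all genes. There FABP4, highest in basal 3, Dox 2 and Dox 3 like PLIN1, was at 0.37 (limma, adjusted p = 0.239). RETN was at 0.08, CIDEA at 0.05, ADIPOQ at -0.14 and LEP at -0.18. The part of other cells in the PLIN1 signal was not tested.

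PLIN2, which covers droplets in most cells and is degraded when not bound to one, measured 5.32, 5.20 and 5.68 in basal 1 to 3 and 5.62, 5.87 and 5.58 in Dox 1 to 3 at its brighter probe set. The Dox arrays were near or above the basal ones but overlapped them, with a labelled difference of 0.29 ± 0.16 (SE, exact permutation test, p = 0.3). Without basal 3 and Dox 1 it was 0.46 ± 0.14 (limma, adjusted p = 0.102), and 3 of the 6 arrays were below the array median. The dimmer probe set, below the median in all 6 arrays, gave -0.09 ± 0.14 (adjusted p = 0.870). PLIN3, a perilipin that cycles between cytosol and droplets, measured 10.25, 10.88 and 10.21 in basal 1 to 3 and 10.29, 10.22 and 10.84 in Dox 1 to 3. Its high arrays were basal 2 and Dox 3, the 2 of narrower spread, which lay 0.62 above the 4 others on average. The labelled difference was 0.00057 ± 0.24 (SE, exact permutation test, p = 1), and without basal 3 and Dox 1 it was -0.039 ± 0.098 (limma, adjusted p = 0.931). Of the 20 probe sets, 4 were higher in both of these arrays than in all 4 others, as were 27.2% of all probe sets.

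PLIN4, found on young droplets in fat cells, measured 5.74, 5.51 and 5.91 in basal 1 to 3 and 5.67, 5.81 and 5.89 in Dox 1 to 3. The groups overlapped, at 0.07 ± 0.14 (SE, exact permutation test, p = 0.7), and without basal 3 and Dox 1 the difference was 0.22 ± 0.15 (limma, adjusted p = 0.586). PLIN5, which is most abundant in tissues that burn fat and tethers droplets to mitochondria, measured 6.69, 7.22 and 6.92 in basal 1 to 3 and 6.56, 6.79 and 6.67 in Dox 1 to 3 at its brightest probe set. Basal 2 was the highest array. The labelled difference was -0.27 ± 0.17 (SE, exact permutation test, p = 0.2), and without basal 3 and Dox 1 it was -0.23 ± 0.16 (limma, adjusted p = 0.638), with array sets of opposite sign (0.10 and -0.55). None of its 6 probe sets passed limma's test in either comparison, and 3 of the 6 were below the array median in all 6 arrays. PLIN2, PLIN3, PLIN4 and PLIN5 thus gave no call in either comparison.

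**Figure D2:**
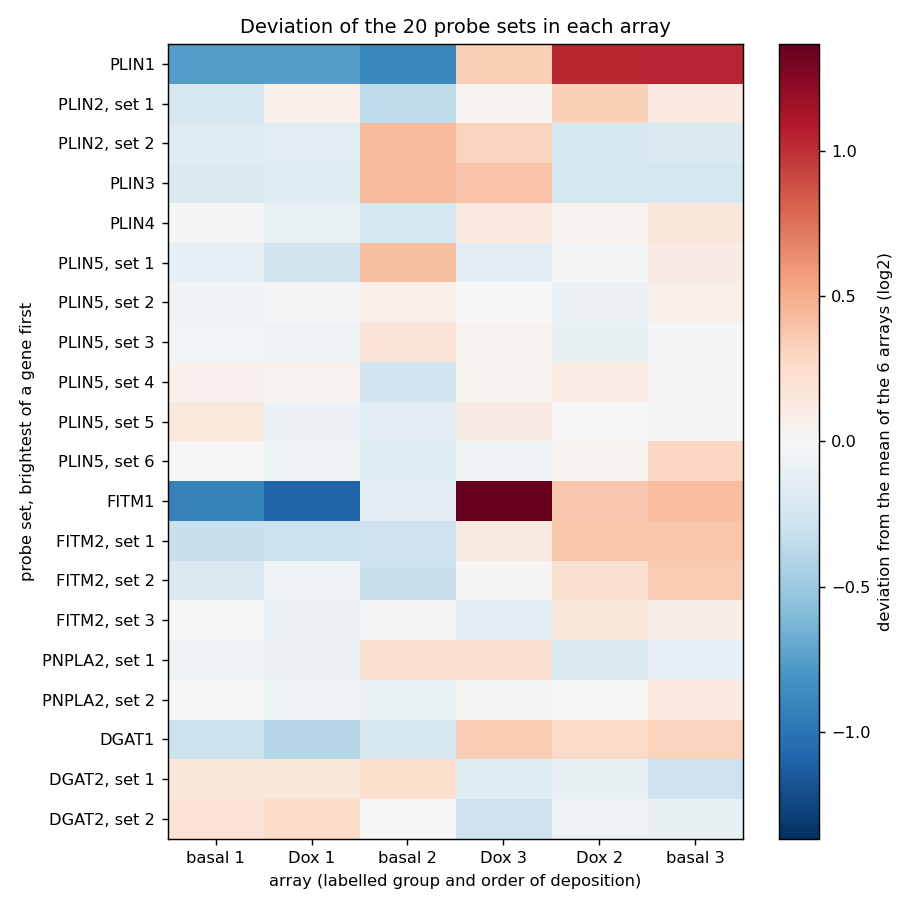
Deviation (log2) of each of the 20 probe sets from its mean over the 6 arrays, with arrays in the order basal 1, Dox 1, basal 2, Dox 3, Dox 2 and basal 3. The 2 nearly identical pairs, at the left and at the right edge, have like colours in the PLIN1, FITM1, FITM2 and DGAT1 rows, and PLIN3 is high in basal 2 and Dox 3 only.

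FITM1, the FIT protein of skeletal muscle, measured 6.25, 7.02 and 7.59 in basal 1 to 3 and 6.07, 7.54 and 8.54 in Dox 1 to 3. Dox 3 was the highest array and basal 1 and Dox 1 the lowest, so the groups overlapped. The means were 6.95 ± 0.68 and 7.38 ± 1.24 (SD, n = 3 each), and the labelled difference of 0.43 ± 0.62 (SE) was within the spread (exact permutation test, p = 0.8). It was -0.15 without Dox 3. Without basal 3 and Dox 1 it was 1.40 ± 0.13, or 2.65-fold (limma, adjusted p = 1.7e-05), at 1.29 and 1.52 in the array sets. With basal 1 and Dox 2 left out instead it was -0.0035. Of 6 skeletal muscle markers, 4 were below the array median in all 6 arrays. MYH7 was below it in 4 arrays and DES in 0, at 5.81 in basal 2 to 6.30 in Dox 2. The summed signal of the 6 markers was 177 to 210 in basal and 195 to 201 in Dox arrays. In either comparison 0 of the 6 passed the test (limma). Of all genes, 0% were called by label, and 3.16% were higher and 3.27% lower without basal 3 and Dox 1.

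FITM2, the FIT protein made in most tissues, measured 8.83, 8.84 and 9.51 in basal 1 to 3 and 8.84, 9.51 and 9.25 in Dox 1 to 3 at its brightest probe set. Its 3 high arrays were basal 3, Dox 2 and Dox 3, as for PLIN1. The labelled difference was 0.14 ± 0.25 (SE, exact permutation test, p = 0.8), and without basal 3 and Dox 1 it was 0.54 ± 0.12, or 1.46-fold (limma, adjusted p = 0.0167). The other 2 probe sets gave 0.36 ± 0.14 (adjusted p = 0.218) and 0.01 ± 0.14 (adjusted p = 0.988) there. The call was lost without limma's variance trend (adjusted p = 0.0513), and the mean of the 3 probe sets gave 0.30 (adjusted p = 0.321), so the call depends on the probe set. With basal 1 and Dox 2 left out instead the brightest gave -0.13.

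PNPLA2 measured 8.94, 9.22 and 8.88 in basal 1 to 3 and 8.92, 8.81 and 9.22 in Dox 1 to 3 at its brighter probe set. Like PLIN3, it was highest in basal 2 and Dox 3 at that probe set. The labelled difference was -0.03 ± 0.17 (SE, exact permutation test, p = 0.7), and without basal 3 and Dox 1 it was -0.07 ± 0.12 (limma, adjusted p = 0.887). A second probe set gave 0.06 ± 0.14 (adjusted p = 0.930) and was highest in basal 3 (6.65) and lowest in basal 2 (6.43).

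DGAT1 measured 7.25, 7.33 and 7.85 in basal 1 to 3 and 7.15, 7.81 and 7.88 in Dox 1 to 3. Basal 3, Dox 2 and Dox 3 were again the high arrays. The labelled difference was 0.14 ± 0.25 (SE, exact permutation test, p = 0.9), and without basal 3 and Dox 1 it was 0.56 ± 0.13, or 1.47-fold (limma, adjusted p = 0.0224), and 0.56 in each array set. With basal 1 and Dox 2 left out instead it was -0.069. DGAT2 measured 6.53, 6.62 and 6.09 in basal 1 to 3 and 6.53, 6.28 and 6.20 in Dox 1 to 3 at its brighter probe set. Here basal 3, Dox 2 and Dox 3 were the low arrays, at both DGAT2 probe sets. The labelled difference was -0.076 ± 0.18 (SE, exact permutation test, p = 0.8). Without basal 3 and Dox 1 the differences were -0.33 ± 0.14 (limma, adjusted p = 0.287) and -0.28 ± 0.14 (adjusted p = 0.415), neither past the threshold, so DGAT1 and DGAT2 had opposite signs with a call for DGAT1 alone, and the difference between the enzymes was not tested.

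**Figure D3:**
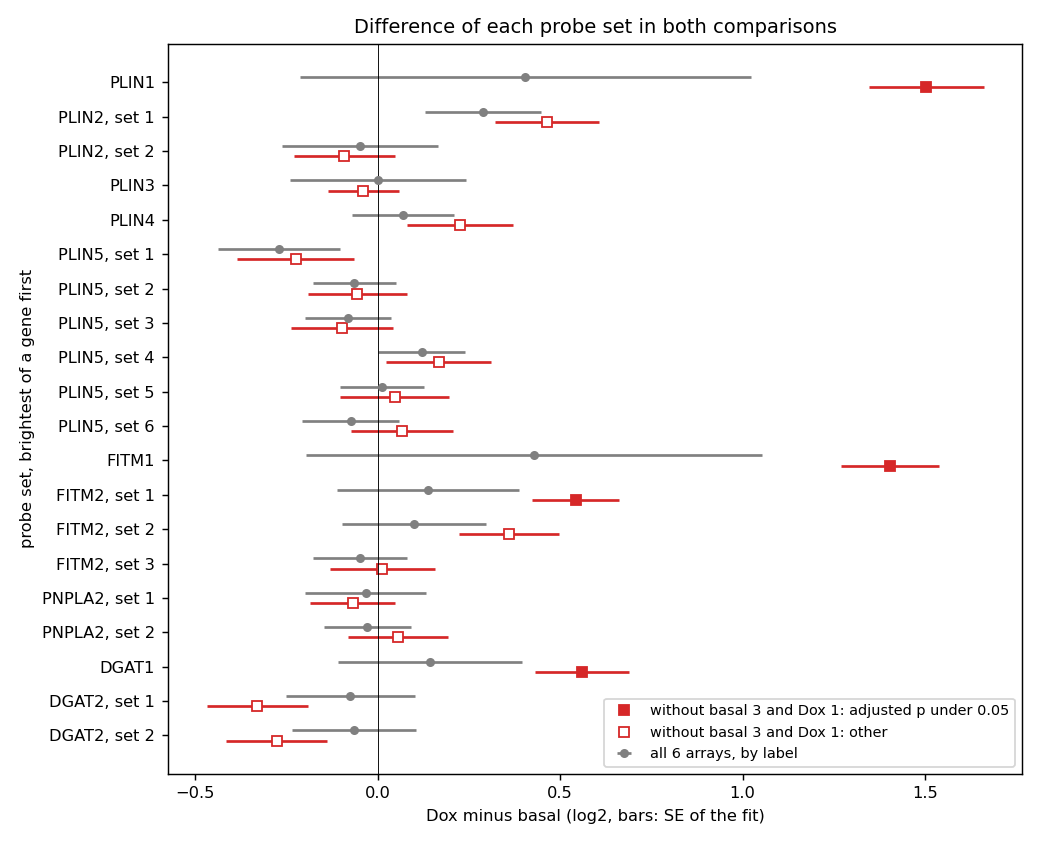
Dox minus basal (log2, bars: SE of the fit) of the 20 probe sets, from all 6 arrays by label (grey circles) and without basal 3 and Dox 1 (red squares, filled where the adjusted p was under 0.05). The 4 filled squares are PLIN1, FITM1, FITM2 and DGAT1, and all the grey circles lie between -0.27 and 0.43.

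The array pattern was shared by part of the genes. The 3 highest arrays were basal 3, Dox 2 and Dox 3 at 7 of the 20 probe sets (6.67% of all probe sets), and the 3 lowest at 2, both of DGAT2. The signs in the 2 array sets were the same at 17 of the 20, against 57.5% of all probe sets. The genes and the array sets were chosen with earlier results of these arrays known, so these counts are no independent evidence. All probe sets were not matched to the 20 for signal, and 14 of the 20 were below the array median in no array. The genes whose pattern over the 6 arrays was most like that of PLIN1 (Pearson r, among 1321 genes that vary enough to be compared) were HLA-DMB (0.9995), SIK1 (0.9991) and VAT1L (0.998). For FITM1, among 1283, they were PLAC1 (0.997), KIF3C (0.995) and KAZN (0.995). These correlations describe 6 arrays that hold 2 nearly identical pairs.

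**Figure D4:**
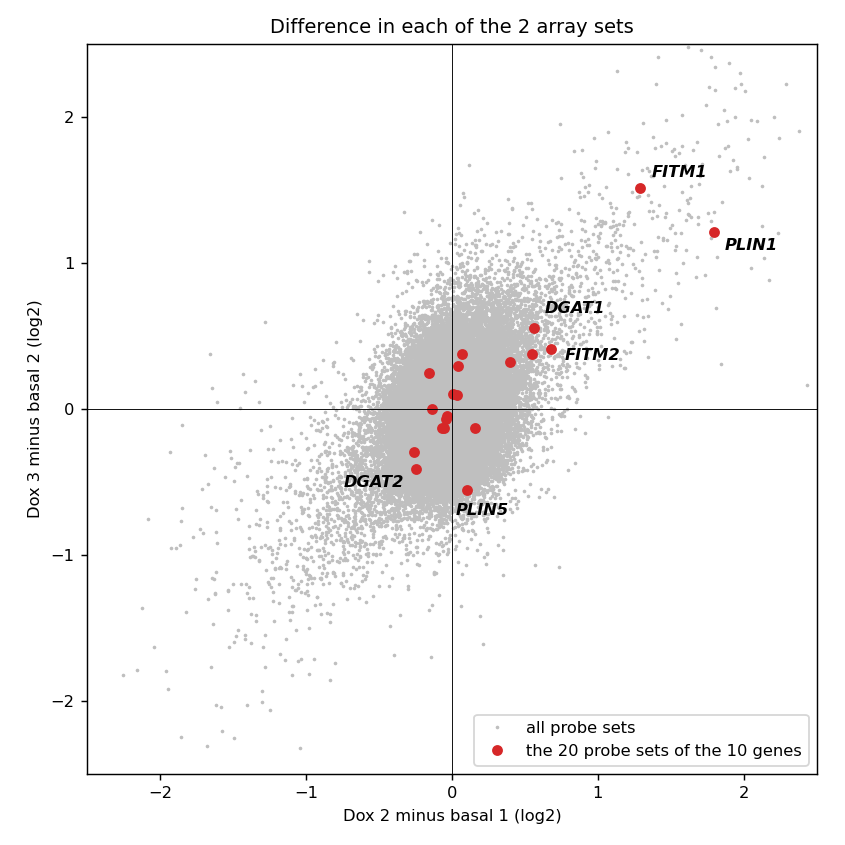
Dox 2 minus basal 1 against Dox 3 minus basal 2 (log2) for all probe sets (grey) and the 20 probe sets (red), with axes ending at 2.5 in either direction and 41 probe sets outside them. PLIN1 and FITM1 lie far out at the upper right, at 1.79 and 1.21 and at 1.29 and 1.52.

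Other genes of lipid storage were counted by their brightest probe set. Of 46 listed, 43 were measured (BSCL2, HSD17B13 and AGPAT3 had no probe set of their own). By label 0 were called (0% of all genes), and without basal 3 and Dox 1 2 were higher and 1 was lower, beside 3.16% and 3.27% of all genes. GPAT3, an enzyme of the first step of glycerolipid synthesis, measured 6.07, 6.08 and 6.90 in basal 1 to 3 and 6.16, 7.05 and 7.12 in Dox 1 to 3. Its difference without basal 3 and Dox 1 was 1.01 ± 0.14 (limma, adjusted p = 0.00039), and 0.42 by label (exact permutation test, p = 0.2). AADAC, a hydrolase of the endoplasmic reticulum that the study also names, measured 4.17, 4.56 and 7.87 in basal 1 to 3 and 4.99, 8.08 and 5.56 in Dox 1 to 3. It was below the array median in 4 arrays, and its difference of 2.46 ± 0.41 (limma, adjusted p = 0.0025) came from 3.91 in one array set and 1.00 in the other. By label its difference was 0.68 (exact permutation test, p = 0.5). LIPA, the lysosomal acid lipase, measured 9.78, 9.98 and 9.32 in basal 1 to 3 and 9.80, 9.35 and 9.27 in Dox 1 to 3. It was low in basal 3, Dox 2 and Dox 3, at -0.57 ± 0.11 (limma, adjusted p = 0.0092), and a second probe set gave -0.52 ± 0.14 (adjusted p = 0.0548). By label the brighter one differed by -0.22 (exact permutation test, p = 0.5). With basal 1 and Dox 2 left out instead, GPAT3 was at 0.15, AADAC at -0.94 and LIPA at -0.12.

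By list, 0 of 10 other droplet proteins were called without basal 3 and Dox 1, with HSD17B11 at -0.23, CIDEB at -0.24 and AUP1 at 0.10. Of 12 lipase partners and hydrolases, AADAC was higher and LIPA lower, and NCEH1, a cholesteryl ester hydrolase, was at -0.25. Of 14 enzymes of glycerolipid synthesis, GPAT3 was higher, and the counted probe sets of LPIN1, a phosphatidate phosphatase, and MOGAT2 were at -0.19 and 0.13. Another, dim LPIN1 probe set was at -0.59 (limma, adjusted p = 0.0418), below the median in 4 arrays. A further, bright LPIN1 probe set was at -0.09 (limma, adjusted p = 0.815). SOAT1 and SOAT2, which make cholesteryl ester, were at -0.05 and 0.07. The 5 PPAR factors and coactivators gave 0 calls, with PPARD at 0.39 (adjusted p = 0.103), PPARA at 0.37 (adjusted p = 0.138) and PPARGC1A at -0.51 (adjusted p = 0.0655). By label, the differences of the lipid storage genes named here, at the counted probe sets, ran from -0.27 (PPARGC1A) to 0.68 (AADAC). GPAT3 was at 0.42 and MOGAT2 next at 0.11, and 0 genes of any list were called. Without basal 3 and Dox 1, of 9 adrenocortical markers measured, SULT2A1 was higher (0.68) and STAR (-0.54) and HSD3B2 (-1.40) were lower. Of 6 endothelial, blood and stromal markers 0 were called there. Of all genes, 3.16% were higher and 3.27% lower. NR0B1 and CD68 were listed too but had no probe set of their own.

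**Figure D5:**
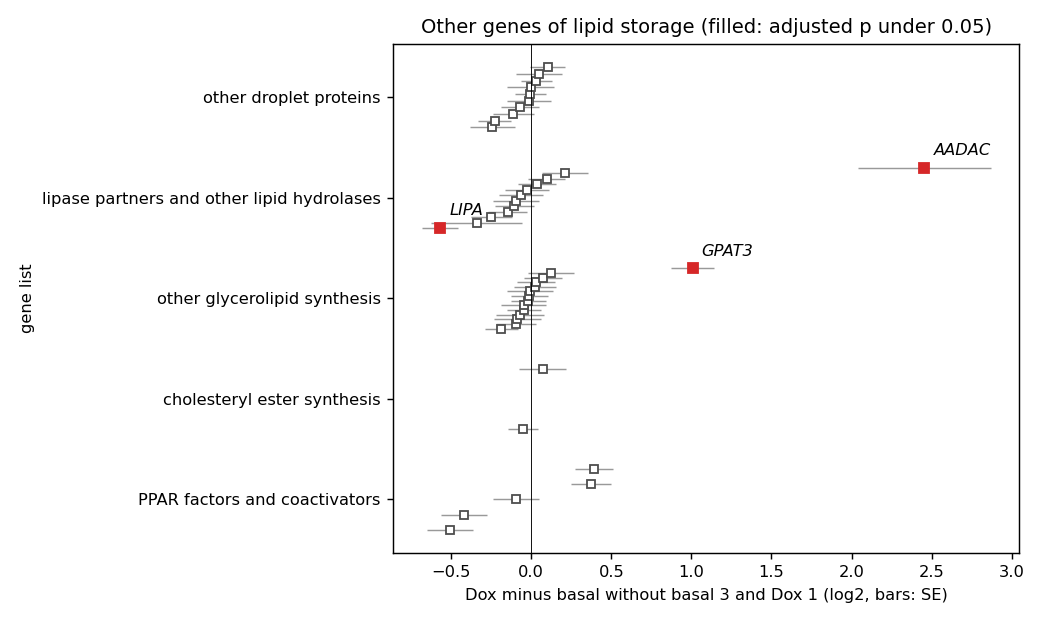
Dox minus basal (log2, bars: SE) without basal 3 and Dox 1 for the other genes of lipid storage, by list, filled where the adjusted p was under 0.05. GPAT3 and AADAC lie right of 0 and LIPA left of it, at 1.01, 2.46 and -0.57.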

How the data were processed

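The 6 arrays were Affymetrix HG-U133 Plus 2.0. The authors deposited 1 log2 value per probe set and array, and the submitters' processing notes name GCRMA, which subtracts a background predicted from probe sequence. These deposited log2 values were not scaled again, since array medians lay between 5.56 and 5.60. Of 54613 probe sets, 41091 had 1 symbol, 1801 several and 11721 none, 54 symbols could not be checked and 0 changed. Groups were compared in limma 3.58.1 under R 4.3.3 (eBayes with a variance trend, Benjamini-Hochberg over all probe sets, threshold 0.05, two-sided), and single genes with exact permutation tests. Arrays are numbered by deposition order within a label. The fits were tested on simulated data with noise taken from basal 1 and Dox 1, a nearly identical pair, and with no such pair simulated. That checks the code and not how the fits behave in these arrays. Genes with several probe sets were counted by the brightest. Named genes are the 10 genes, NR5A1, up to 3 per list with the smallest adjusted p, AADAC, and for PLIN1 and FITM1 the 3 genes of highest r with an SD over the arrays of at least 0.5 times theirs. The members, lists, left-out arrays and tests were chosen with earlier results of these data known. The number of arrays limits the precision.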

Additional observations from a re-analysis of the deposited data

How the results depend on the processing

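Over 9 alternatives, PLIN1 and FITM1 kept their calls without basal 3 and Dox 1 in 6, DGAT1 in 6 and FITM2 in 4. The 9 include the mean of a gene's probe sets. That setting leaves the values of PLIN1, FITM1 and DGAT1 as they were, since each has only 1 probe set. Every alternative that kept a call used the same 4 arrays in the same array sets. With 1 probe set per gene the comparison without basal 3 and Dox 1 gave 676 higher and 707 lower. Without the array set as a block, with the label style (the 2 arrays whose titles spell out the treatment against the 4 with codes) as a block, or with basal 1 and Dox 2 left out instead, all probe sets higher, all lower and those of the 10 genes higher were 0, 0 and 0 in each case (4 arrays each), with 1580, 1901 and 518 probe sets at an unadjusted p under 0.05 (limma). At 2-fold with an unadjusted p under 0.05 there were 283 higher and 197 lower, and 2 of the 10 genes' probe sets. Basal 1 is the only one of the 4 arrays kept with a spelled-out title, so the block of label style compares Dox 2 and Dox 3 with basal 2 alone and assumes that array to vary like the others. Differences stayed 1.50 for PLIN1 and 1.40 for FITM1 without the block, and were 1.56 and 1.02 with label style. The cause of the other changes was not tested. By label, with 6 arrays and the array set as a block, 0 probe sets were called (1227 at an unadjusted p under 0.05, limma).

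Leaving out single arrays moved the labelled differences over these ranges: PLIN1 -0.010 to 1.02, PLIN2 0.19 to 0.43, PLIN3 -0.19 to 0.22, PLIN4 -0.037 to 0.16, PLIN5 -0.40 to -0.13, FITM1 -0.15 to 1.08, FITM2 -0.016 to 0.36, PNPLA2 -0.15 to 0.070, DGAT1 0.0093 to 0.37 and DGAT2 -0.24 to 0.026. The sign changed for PLIN1 and FITM2 without Dox 2, for FITM1 without Dox 3, for PLIN4 and DGAT2 without basal 2, for PNPLA2 without basal 2 or Dox 2, and for PLIN3 without basal 1, basal 3 or Dox 3. With basal 3 and Dox 1 left out and no block PLIN3 was -0.039. With basal 1 and Dox 2 left out, with or without the array sets, PLIN1 was -0.29, FITM1 -0.0035, FITM2 -0.13, PNPLA2 0.018, DGAT1 -0.069 and DGAT2 0.010, and within the array sets PLIN3 was 0.016, AUP1 -0.067, AADAC -0.94, NCEH1 0.10, SOAT2 -0.10, PPARD -0.11 and PPARA -0.046. With the label style as a block AUP1 was -0.32, LPIN1 0.20 and SOAT2 -0.23. Without basal 3 and Dox 1, PPARGC1A passed limma's test with 1 probe set per gene (adjusted p = 0.0381) and with arrays centred on the median (adjusted p = 0.0491). That probe set was below the array median in all 6 arrays. A second PPARGC1A probe set, also below it in all 6, was at -0.08 in the main fit (limma, adjusted p = 0.877). Pairing by replicate number was not possible, since the labels give no numbers that both groups share, and the array sets used as a block were taken from the data.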
